A study of Homo sapiens with 6 samples.

Results

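Readthrough genes are annotated as genes of their own that run across a pair of neighbours and carry both names, as RPS10-NUDT3 carries those of RPS10 and NUDT3. Rows of the deposited table were taken as readthrough rows where the Ensembl identifier, without its version, has a symbol of the form A-B, where A and B are each the symbol of another row, and where the estimated counts of the 6 libraries sum to 60 or more. This gave 64 of 63086 rows, with 63 symbols at 62 loci, since ARMCX5-GPRASP2 is present as 2 rows and SUGT1P4-STRA6LP is itself the upstream partner of SUGT1P4-STRA6LP-CCDC180. Of the 136 symbols of this form in the table, 72 summed to less than 60 and 26 of those had no count in any library. The members were thus chosen by their names and by their summed counts, and the summed count is used below only as a description. In what follows A is the upstream partner, B the downstream partner, and the sum of A-B, A and B is the locus sum, which at those loci holds all of their rows.

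A transcript of RNA polymerase II normally ends where the nascent RNA is cleaved behind a polyadenylation signal, after which the polymerase is released. When cleavage fails or is skipped, the polymerase continues into the next gene on the same strand, and splicing can then join an exon of the upstream gene to an exon of the downstream gene. Such joined messages may encode fusion proteins or hold a premature stop and be degraded by nonsense-mediated decay. Cleavage and polyadenylation factors set where a transcript ends, and the U1 snRNP (small nuclear ribonucleoprotein) protects introns from early cleavage.

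The libraries are from HEK293T, an established human embryonic kidney line, and compare cells lacking and supplied with queuine, a base taken up from food and microbes that replaces a guanine in the anticodon of certain tRNAs. The 0Q cells (3 libraries) were kept in medium with dialyzed fetal bovine serum, penicillin and streptomycin, and the 100Q cells (3 libraries) are 0Q cells of the same line and medium given queuine, at 100 nM per the sample characteristics and at 1 µM for 24 hours per the treatment protocol. The totals per library ran from 7264638 to 8035251 estimated counts in 0Q and were 5219707, 4023956 and 11398835 for replicates 1, 2 and 3 of 100Q. Nothing in the labels says that the libraries of a group came from separate cultures, so the p-values measure the spread between these libraries only, and that spread may be technical. Of the HEK293T markers, the neurofilament genes NEFM and NEFL had 143 to 199 and 86.7 to 115 CPM (counts relative to the scaled library total) in the 6 libraries, INA had 39.7 to 55 and EYA1 9.43 to 19.2, and the kidney genes LHX1 and PAX2 were lower, at 2.65 to 8.54 and 1.72 to 7.89, whereas the lymphocyte genes PTPRC, CD3E and MS4A1 and the endothelial CDH5 were at 0 in each. The summed level of the fibroblast genes COL1A2, DCN and LUM was 0.252 to 0.66 CPM in 0Q and 0.343 to 2.01 in 100Q.

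In the annotation (GENCODE release 44, hg38), 55 of the 64 readthrough rows are protein-coding genes and 9 are long noncoding RNA genes. For 62 of them the row overlaps both partners on the same strand. The exceptions are BORCS7-ASMT on chromosome 10, whose namesake ASMT lies on another chromosome and had no count, and the row ENSG00000286237 of ARMCX5-GPRASP2, which overlaps GPRASP2 but not ARMCX5. For 53 rows a gap separates the partners, and 38 of those gaps are shorter than 10000 bases. For 9 rows the partners themselves overlap, and GALNT4 lies wholly within the span of POC1B. Over all rows with partners in place, the median distance from the end of A to the start of B was 2438 bases.

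The readthrough rows have little sequence of their own. The median row has 233 exonic bases that belong to no exon of A or B, which is 7.41% of its exons; 13 rows have none and 34 have under 10%. What sets most of them apart is the joining of exons. In 53 rows at least 1 annotated transcript holds an intron that runs from an exon of A to an exon of B, and there are 99 such junctions, 42 of the rows having one inside an annotated coding sequence, which may be that of a decay target. The joined run of 30 bases around 96 of the 99 junctions is found in no transcript of a gene other than the readthrough gene and its partners; the 3 others are those of SLX1A-SULT1A3 and SLX1B-SULT1A4, which match each other, and of ZNF8-ERVK3-1. In 30 rows a transcript is annotated as a target of nonsense-mediated decay, and 14 of these have no transcript annotated as protein coding.

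The joined runs are shown for the loci on which the comparisons below turn, because these are the bases by which a read can be told from reads of A or of B alone. Each is read 5′ to 3′ on the strand of the gene from the reference genome (hg38), with the last 15 bases of the upstream exon in lower case and the first 15 bases of the downstream exon in capitals.
RPS10-NUDT3, intron chr6:34341973-34418368, minus strand: accgaattccagtttGTGCTACTCGTGAGC
RPS10-NUDT3, intron chr6:34295686-34418368, minus strand: accgaattccagtttGCTGGAGTAAAAGGG
MSANTD3-TMEFF1, intron chr9:100442357-100498764, plus strand: acgcctcagcccaagAATTAAATGTGAGGG
POC1B-GALNT4, intron chr12:89523674-89525119, minus strand: acggcaagcaacttgGAAAGGGACAGGCGG
POC1B-GALNT4, intron chr12:89524441-89525119, minus strand: acggcaagcaacttgGAGCCGGCCGTGCCA
PRR5-ARHGAP8, intron chr22:44726635-44786456, plus strand: ttcgcttctatgaggAGCTGCAGAGAGACA
PRR5-ARHGAP8, intron chr22:44735163-44786456, plus strand: attcctgcatcctggAGCTGCAGAGAGACA
SYS1-DBNDD2, intron chr20:45365687-45408459, plus strand: caacgccctcacctgGAGCTGACATGGACC
JMJD7-PLA2G4B, intron chr15:41836552-41840157, plus strand: gaggccatggagaagGCAGAGGTGTCCAGG
RNASEK-C17orf49, intron chr17:7014278-7015061, plus strand: cgcaaggaatacatgGTCGGAGAGATCTTC
BLOC1S5-TXNDC5, intron chr6:7904724-8026366, minus strand: caggaacgaaaaaagGTGTGGACACTGCCA
HNRNPUL2-BSCL2, intron chr11:62707325-62715499, minus strand: caatacaatcgggatGGACCCTCCATTTTC
FMC1-LUC7L2, intron chr7:139345622-139376061, plus strand: aatttcatggcaaggGAGATACAACTCGTC
ISY1-RAB43, intron chr3:129095170-129130087, minus strand: cagaaggctcctgggCTGCAGATCTGGGAC
Both junctions of RPS10-NUDT3 leave the same exon of RPS10 and enter different exons of NUDT3. Those of POC1B-GALNT4 leave the same exon of POC1B and enter GALNT4 at different points, whereas those of PRR5-ARHGAP8 leave different exons of PRR5 and enter 1 exon of ARHGAP8. The introns range from 679 bases at POC1B-GALNT4 to 122683 at RPS10-NUDT3. The runs are those of the annotation; reads across them were not examined, since the deposited values are per gene.

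**Figure D1:**
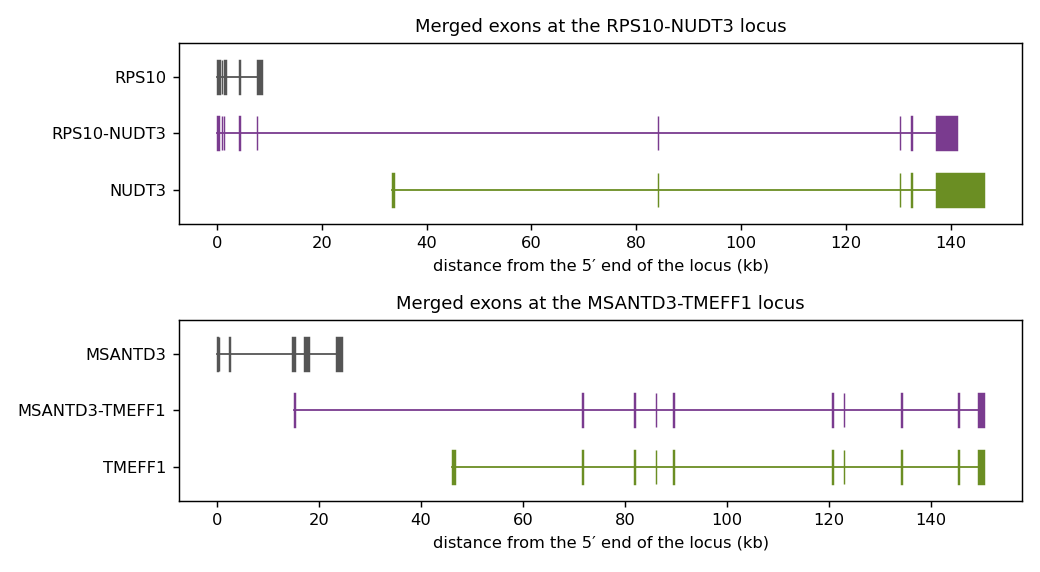
Merged exons of the readthrough gene and its partners at the RPS10-NUDT3 and MSANTD3-TMEFF1 loci, drawn to scale as distance in kb from the 5′ end of the locus; boxes are exons and lines join the first and last exon of each gene. Nearly every box of the readthrough gene has a box of A or B above or below it: RPS10-NUDT3 has 2 exonic bases of its own and MSANTD3-TMEFF1 has 0.

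Most values of these rows were not whole numbers. RSEM, named in the submitters' processing notes, divides a read that fits several transcripts among them, so its estimated counts need not be whole. A value was taken as whole within 0.02. Of the values of readthrough rows, 87.5% were not whole, against 77.6% for the partner rows and 27.1% for the other rows with a summed count of 60 or more. A-B alone was whole in 48 of 384 values (12.5%), A-B plus A in 65 and A-B plus B in 59, but the sum of all 3 was whole in 208 (54.2%), and for 25 members in all 6 libraries. Of the 48 whole values of A-B, 25 were 0, which counts as whole. Among the 336 values of A-B that were not whole, 186 (55.4%) became whole in the sum. As background, the same was done for 941 other pairs of genes whose spans overlap on the same strand. Of 3634 values of the upstream row that were not whole, 726 (20%) became whole when the downstream row was added. At HNRNPUL2-BSCL2, ATP6V1G2-DDX39B, FMC1-LUC7L2, ARPIN-AP3S2, MSANTD3-TMEFF1, JMJD7-PLA2G4B, CORO7-PAM16, STX16-NPEPL1, POC1B-GALNT4 and PRR5-ARHGAP8 the sum was whole in all 6 libraries; at RPS10-NUDT3 it was whole in 1 of 6. The rows of a locus are therefore not independent measurements, and the locus sums were compared as well.

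Together the 64 rows held 0.0896% to 0.0991% of the counts of a library. As a share of the locus, that is A-B divided by the sum of A-B, A and B over the 6 libraries, the readthrough row took a median of 10.8%, from 1.13% to 100%. At the loci of ARMCX5-GPRASP2 and SUGT1P4-STRA6LP the share takes only the row and its own A and B, unlike the locus sum. The share was over 50% at 6 loci, SUGT1P4-STRA6LP, PDXDC2P-NPIPB14P, TVP23C-CDRT4, JMJD7-PLA2G4B, BMS1P4-AGAP5 and SLX1A-SULT1A3. It was 25% to 50% at 11 loci, TEN1-CDK3, SUGT1P4-STRA6LP-CCDC180, BOLA2-SMG1P6, HNRNPUL2-BSCL2, SLX1B-SULT1A4, DUS4L-BCAP29, MSANTD3-TMEFF1, RTEL1-TNFRSF6B, ABCF2-H2BK1, ARPIN-AP3S2 and STIMATE-MUSTN1. It was 10% to 25% at 18, ANKHD1-EIF4EBP3, FMC1-LUC7L2, PPAN-P2RY11, ST20-MTHFS, ISY1-RAB43, PPT2-EGFL8, DNAJC25-GNG10, MSH5-SAPCD1, BORCS8-MEF2B, CENPS-CORT, SENP3-EIF4A1, IFNAR2-IL10RB, PMF1-BGLAP, PEDS1-UBE2V1, CHKB-CPT1B, ARPC4-TTLL3, BORCS7-ASMT and P2RX5-TAX1BP3. It was under 10% for 29 rows, among them SYS1-DBNDD2, ATP6V1G2-DDX39B, ATP5MF-PTCD1, BCL2L2-PABPN1, TMED7-TICAM2, both rows of ARMCX5-GPRASP2, ABHD14A-ACY1, CFAP298-TCP10L, POC1B-GALNT4, TIMM23B-AGAP6, TLCD4-RWDD3, RNASEK-C17orf49, DNAAF4-CCPG1, CKLF-CMTM1, ZNF8-ERVK3-1, PRR5-ARHGAP8, CORO7-PAM16, RPS10-NUDT3, ZHX1-C8orf76, SYNJ2BP-COX16, RBM14-RBM4, NDUFC2-KCTD14, BLOC1S5-TXNDC5, RPL17-C18orf32, STX16-NPEPL1, NME1-NME2 and HSPE1-MOB4. A-B had more counts than both partners at 8 loci and the fewest of the 3 at 32. Per kb of merged exons, the scale on which levels of different genes can be compared, the readthrough row ranked first at 8 loci, second at 29 and last at 27. Merged exons take in every annotated transcript of a gene, so these ranks also depend on the annotated lengths.

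**Figure D2:**
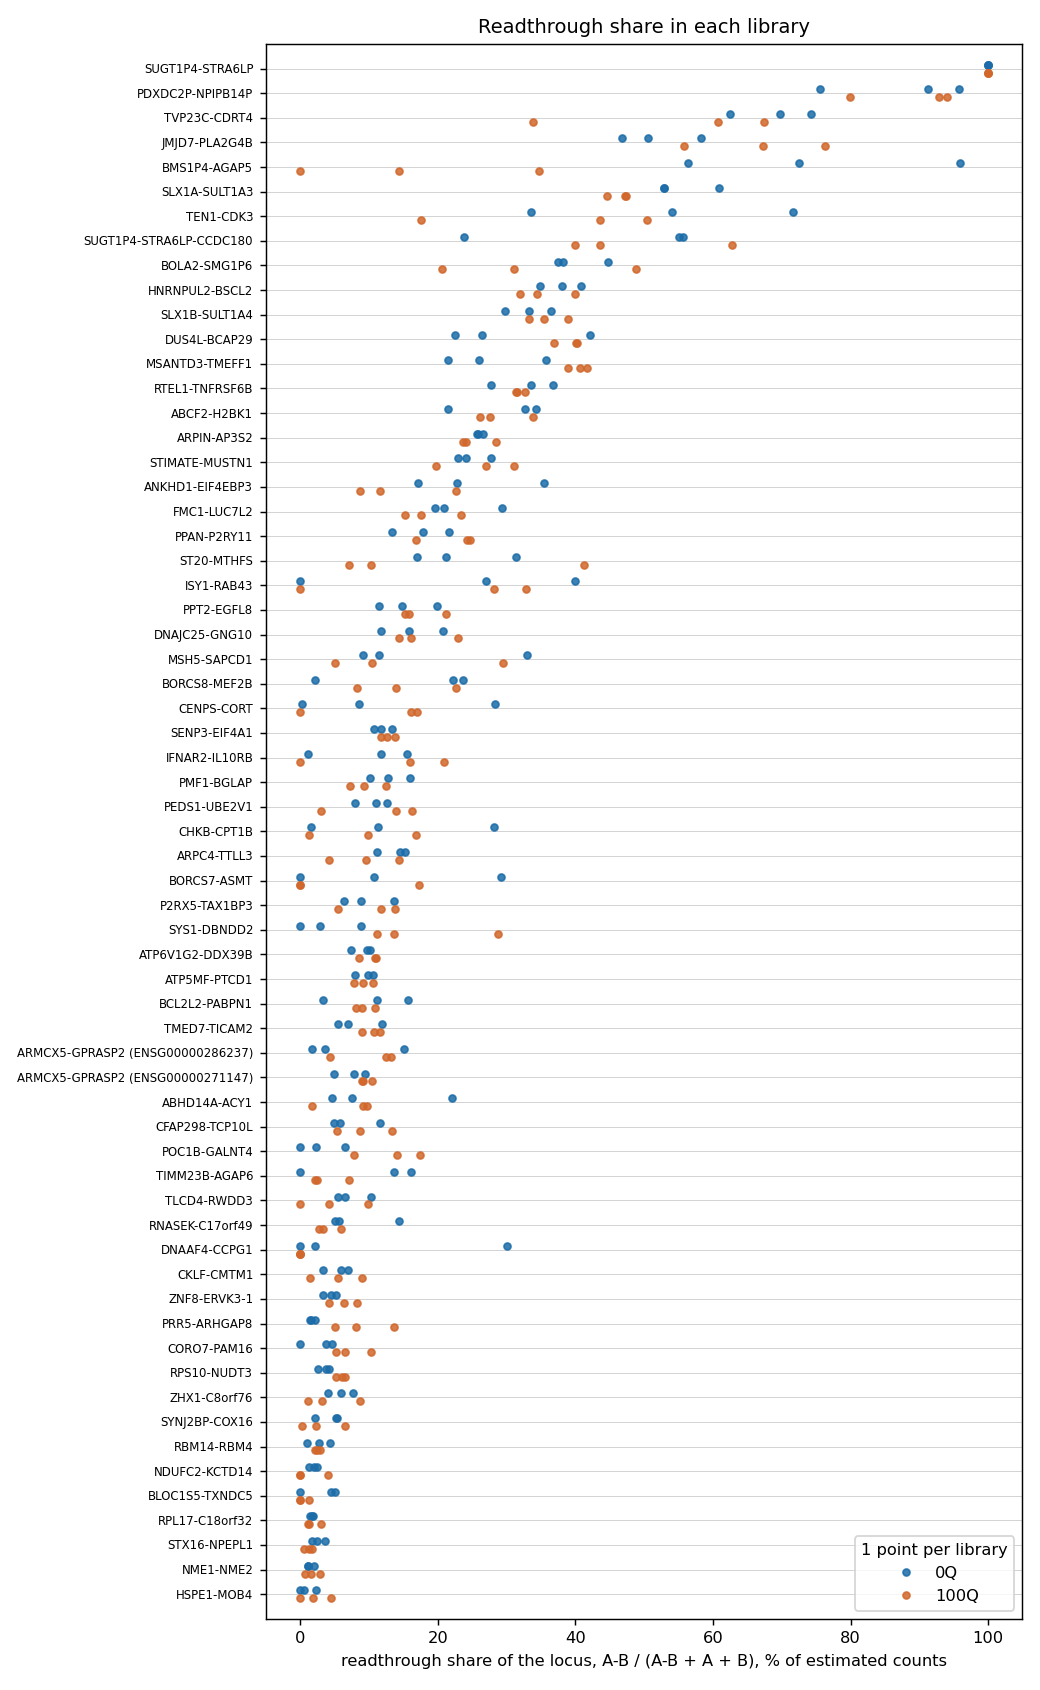
Readthrough share of each locus in each library, in % of the estimated counts of A-B, A and B, for 63 of the 64 rows, ordered by their share over all libraries; each point is 1 library, 0Q in blue and 100Q in orange. The shares run from 1.13% at HSPE1-MOB4 to 100% at SUGT1P4-STRA6LP, and for most rows the points of both conditions overlap.

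In the sentences that follow, 3 values are replicates 1 to 3 in that order, ± is the SD over 3 libraries unless it is named as an SE, and levels are CPM. The readthrough row with the most counts was SENP3-EIF4A1, which joins SENP3, a SUMO protease of the nucleolus, to EIF4A1, the RNA helicase that unwinds messages for translation. It had 189, 153 and 131 CPM in 0Q and 155, 181 and 147 in 100Q, and the groups overlapped. Its share was 12.3%, and its level was 45.3 CPM per kb against 27.8 for SENP3 and 198 for EIF4A1. Next was HNRNPUL2-BSCL2, across an RNA-binding protein gene and the gene of seipin, a lipid droplet protein, with 71.3, 76.8 and 61.7 CPM in 0Q and 77.6, 62.3 and 54.9 in 100Q. It took 36.8% of the counts of its locus, BSCL2 alone having 12.6 ± 3.02 CPM in 0Q and 15.9 ± 1.01 in 100Q. It has no exonic base of its own, and its only annotated joint is the one printed above.

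ATP6V1G2-DDX39B joins the gene of a subunit of the vacuolar proton pump to that of an RNA helicase of splicing and mRNA export. Its values were 37.3, 52.9 and 52.9 CPM in 0Q and 51.2, 62 and 62.6 in 100Q. DDX39B took most of the locus, and the share of the readthrough row was 9.7%. FMC1-LUC7L2, across a gene for assembly of the mitochondrial ATP synthase and a splicing factor bound to the U1 snRNP, had 50.7, 70.8 and 52.3 CPM in 0Q and 36.3, 61.7 and 40.8 in 100Q. Per length it stood at 31.4 CPM per kb against 18.4 for FMC1 and 27.1 for LUC7L2, so that the joined row ranked first of the 3. Its merged exons span 1661 bases against 1328 for FMC1 and 6316 for LUC7L2. In counts LUC7L2 was higher, with 7407 against 2232 for the joined row. ABCF2-H2BK1, which runs from an ATP-binding cassette gene into a histone H2B gene, had 48.7, 50 and 28.3 CPM in 0Q and 36.3, 49.8 and 37.6 in 100Q, with H2BK1 listed at 0 in all 6 libraries. ARPIN-AP3S2, which joins the gene of an inhibitor of the actin-nucleating Arp2/3 complex to that of a vesicle coat adaptor, had 41.3, 39.1 and 39.2 CPM in 0Q and 33.2, 31.9 and 46.7 in 100Q. Its level was 14.4 CPM per kb against 6.31 for ARPIN and 6.12 for AP3S2, again the first of the 3. Its merged exons span 2673 bases against 8590 for ARPIN and 9237 for AP3S2. In counts it was the lowest of the 3, with 1746 against 2414 and 2477. In each of these 4 rows the libraries of 0Q and 100Q overlapped.

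At the top of the range of shares, SUGT1P4-STRA6LP had 0.773, 1.6 and 0.305 CPM in 0Q and 4.14, 0.783 and 1.7 in 100Q, and both of its namesakes were listed at 0 in all 6 libraries, so its share of 100% rests on 65 counts. That share leaves out SUGT1P4-STRA6LP-CCDC180 and CCDC180, with 209.61 and 201.37 counts, which belong to the same locus sum. PDXDC2P-NPIPB14P, a noncoding gene across a pair of pseudogenes of chromosome 16, had 13.4, 12.6 and 12.9 CPM in 0Q and 14.4, 9.83 and 18.3 in 100Q, and its share was 95.8%, 75.6% and 91.3% in the 0Q libraries and 80%, 94.1% and 92.9% in those of 100Q. Pseudogenes share sequence with their parent genes, so its counts are uncertain. TVP23C-CDRT4, which begins in the gene of a Golgi membrane protein, had 18, 20.6 and 13.3 CPM in 0Q and 23.3, 17.9 and 6.94 in 100Q, with shares of 69.8%, 74.3% and 62.5% in the 0Q libraries and 67.5%, 60.8% and 33.8% in those of 100Q. The library 100Q replicate 3 lay well below the other 5.

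At the bottom of the range, HSPE1-MOB4 runs from the gene of the mitochondrial co-chaperonin Hsp10 into that of a MOB family protein. It had 0, 0.95 and 4.33 CPM in 0Q and 3.28, 7.92 and 0 in 100Q, beside 145 ± 4.73 CPM in 0Q and 126 ± 7.69 in 100Q for HSPE1. It was listed at 0 in 1 library of each group. NME1-NME2, across neighbouring genes of nucleoside diphosphate kinases, had 9.33, 14.8 and 8.05 CPM in 0Q and 4.78, 21.1 and 9.9 in 100Q and a share of 1.49%. STX16-NPEPL1, from the gene of a SNARE protein of the trans-Golgi network into an aminopeptidase-like gene, had 2.46, 3.48 and 5.01 CPM in 0Q and 0.913, 3.01 and 2.14 in 100Q and a share of 1.81%. NME1 and NME2 are close relatives in sequence, so the division of reads between their rows is uncertain.

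The members just inside the minimum summed count were SUGT1P4-STRA6LP with 65 counts in all (5.54, 12.7 and 2.31 in 0Q and 21.5, 3.12 and 19.8 in 100Q), NDUFC2-KCTD14 with 62.6 counts in all (9.47, 15.3 and 7.84 in 0Q and 0, 0 and 30 in 100Q) and CKLF-CMTM1 with 60.9 counts in all (5.74, 11.1 and 12.6 in 0Q and 14.6, 1.37 and 15.5 in 100Q). Just under it were TPTEP2-CSNK1E with 56.8 counts in all (0, 12.5 and 0 in 0Q and 0, 4.88 and 39.4 in 100Q), CHURC1-FNTB with 53.4 counts in all (10.2, 11.7 and 13.3 in 0Q and 13.4, 3.34 and 1.29 in 100Q) and FPGT-TNNI3K with 51.6 counts in all (6.28, 14.2 and 4.06 in 0Q and 1.32, 7.3 and 18.4 in 100Q).

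The comparison of 100Q with 0Q asked whether supplied queuine changes the level of readthrough genes, of their partners or of the locus sums. No readthrough row, partner row or locus sum passed the test. Among readthrough rows the smallest p were those of PRR5-ARHGAP8 and RPS10-NUDT3, with higher values in 100Q. Among partner rows they were those of the downstream partners NUDT3 and TMEFF1, with lower values, and AGAP6, with higher values. None of the locus sums that hold these rows had an unadjusted p under 0.05. In bulk libraries fewer cells with a transcript and less of it per cell cannot be told apart.

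In numbers, 62 of the 64 readthrough rows had counts enough for the test, and at a Benjamini-Hochberg adjusted p under 0.05 edgeR's quasi-likelihood test called 0 of them, where it called 0.0134% of all 14905 rows tested. DESeq2 and limma-voom called 0 as well. At an unadjusted p under 0.05 there were 10 (6 with higher and 4 with lower values in 100Q; 16.1%), against a background of 4.72% of all rows (2.49% higher and 2.23% lower). Of 110 partner rows tested, edgeR called 0, DESeq2 called 1 (NUDT3) and limma-voom 0, and 17 (15.5%) had an unadjusted p under 0.05, 6 of 59 upstream and 11 of 51 downstream. Of the 62 locus sums, fitted in a table in which each sum took the place of its rows, each of the 3 tools called 0, against 0.0135% of that table, and 5 (4 with higher and 1 with lower values; 8.06%) had an unadjusted p under 0.05, against 4.64% (2.45% higher and 2.18% lower). Groups that did not overlap were found in 6 readthrough rows (9.68%) and 23 partner rows (20.9%), with a background of 10.6%, and in 9 locus sums (14.5%), with a background of 10.5%. The share of readthrough rows whose groups did not overlap was thus near the background. The median log2 fold change (100Q minus 0Q) was 0.01 for readthrough rows and -0.01 for locus sums, beside -0.0027 for all rows tested. The smallest adjusted p was 0.718 among readthrough rows, 0.206 among partner rows and 0.737 among locus sums (edgeR quasi-likelihood, Benjamini-Hochberg), so only unadjusted p-values are given for most of the rows below.

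RPS10-NUDT3 (ENSG00000270800, chr6:34284887-34426071, minus strand) joins RPS10, a protein of the small ribosomal subunit, to NUDT3, a hydrolase of inositol pyrophosphates that also removes mRNA caps. The readthrough row had 20.1, 30.1 and 30.2 CPM in 0Q and 37.5, 47.2 and 40.8 in 100Q, so each 100Q library lay above each 0Q library. NUDT3 had 100.2, 107 and 129 CPM in 0Q and 80.9, 51.5 and 71.1 in 100Q, and here each 100Q library lay below. RPS10 had 676, 676 and 562 CPM in 0Q and 604, 625 and 558 in 100Q, with overlapping groups. The log2 fold change was 0.63 ± 0.17 (SE; unadjusted p = 0.00162, adjusted p = 0.807) for the readthrough row, -0.71 ± 0.14 (SE; unadjusted p = 0.000118, adjusted p = 0.206) for NUDT3 and -0.10 ± 0.08 (SE; unadjusted p = 0.252) for RPS10. For the locus sum, which had 796, 813 and 721 CPM in 0Q and 722, 724 and 670.5 in 100Q, it was -0.14 ± 0.07 (SE; unadjusted p = 0.0777). When each library was left out in turn the change ranged from 0.46 to 0.73 for the readthrough row and from -0.84 to -0.57 for NUDT3. NUDT3 passed the threshold in DESeq2, and both rows passed where rows of low count were kept in the edgeR fit. Between the group means the readthrough row differed by 15 CPM and NUDT3 by -44.3 CPM.

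MSANTD3-TMEFF1 (ENSG00000251349, chr9:100442271-100577636, plus strand) runs from a gene with a Myb/SANT-like domain into TMEFF1, a transmembrane protein with EGF-like and follistatin-like domains. The readthrough row had 13.1, 17.1 and 23.3 CPM in 0Q and 29.1, 21.8 and 22.9 in 100Q, and the groups overlapped. TMEFF1 had 25.7, 21.7 and 15.1 CPM in 0Q and 10.1, 8.85 and 12.7 in 100Q, each 100Q library below each of 0Q. MSANTD3 had 22.3, 27 and 26.8 CPM in 0Q and 32.3, 21.6 and 23.3 in 100Q, and the locus sum 61.1, 65.8 and 65.2 CPM in 0Q and 71.6, 52.2 and 58.9 in 100Q, both with overlap. The log2 fold change was 0.46 ± 0.21 (SE; unadjusted p = 0.0411) for the readthrough row and -0.95 ± 0.23 (SE; unadjusted p = 0.000847, adjusted p = 0.665) for TMEFF1. In this locus A-B plus B, as well as MSANTD3 alone, was whole in all 6 libraries, while neither A-B nor TMEFF1 was whole in any.

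POC1B-GALNT4 (ENSG00000259075, chr12:89519408-89526262, minus strand) combines POC1B, a protein of centrioles, with GALNT4, an enzyme that starts mucin-type O-glycosylation. It had 1.86, 0 and 0.844 CPM in 0Q and 6.14, 2.03 and 4.86 in 100Q, so 100Q lay above 0Q in every library, at a low level. GALNT4 had 7.64, 17.7 and 8.02 CPM in 0Q and 3.95, 5.75 and 6.1 in 100Q, each 100Q library below each of 0Q. The log2 fold change was 2.34 ± 0.80 (SE; unadjusted p = 0.0106) for the readthrough row and -1.06 ± 0.36 (SE; unadjusted p = 0.0102) for GALNT4. POC1B had 19.1, 25 and 29.3 CPM in 0Q and 25.1, 18.1 and 23.8 in 100Q, with overlap. PRR5-ARHGAP8 (ENSG00000248405, chr22:44702233-44862706, plus strand) begins in PRR5, a subunit of the kinase complex mTORC2, and ends in ARHGAP8, a GTPase-activating protein. It had 1.17, 0.867 and 0.775 CPM in 0Q and 3.12, 7.04 and 4.21 in 100Q, again without overlap, and a log2 fold change of 2.32 ± 0.57 (SE; unadjusted p = 0.00103, adjusted p = 0.718). Its partners overlapped between the groups, PRR5 with 20.7, 22.6 and 18.1 CPM in 0Q and 19.6, 14.7 and 19.9 in 100Q and ARHGAP8 with 33.6, 30.5 and 38.5 CPM in 0Q and 39.2, 30 and 27.7 in 100Q.

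**Figure D3:**
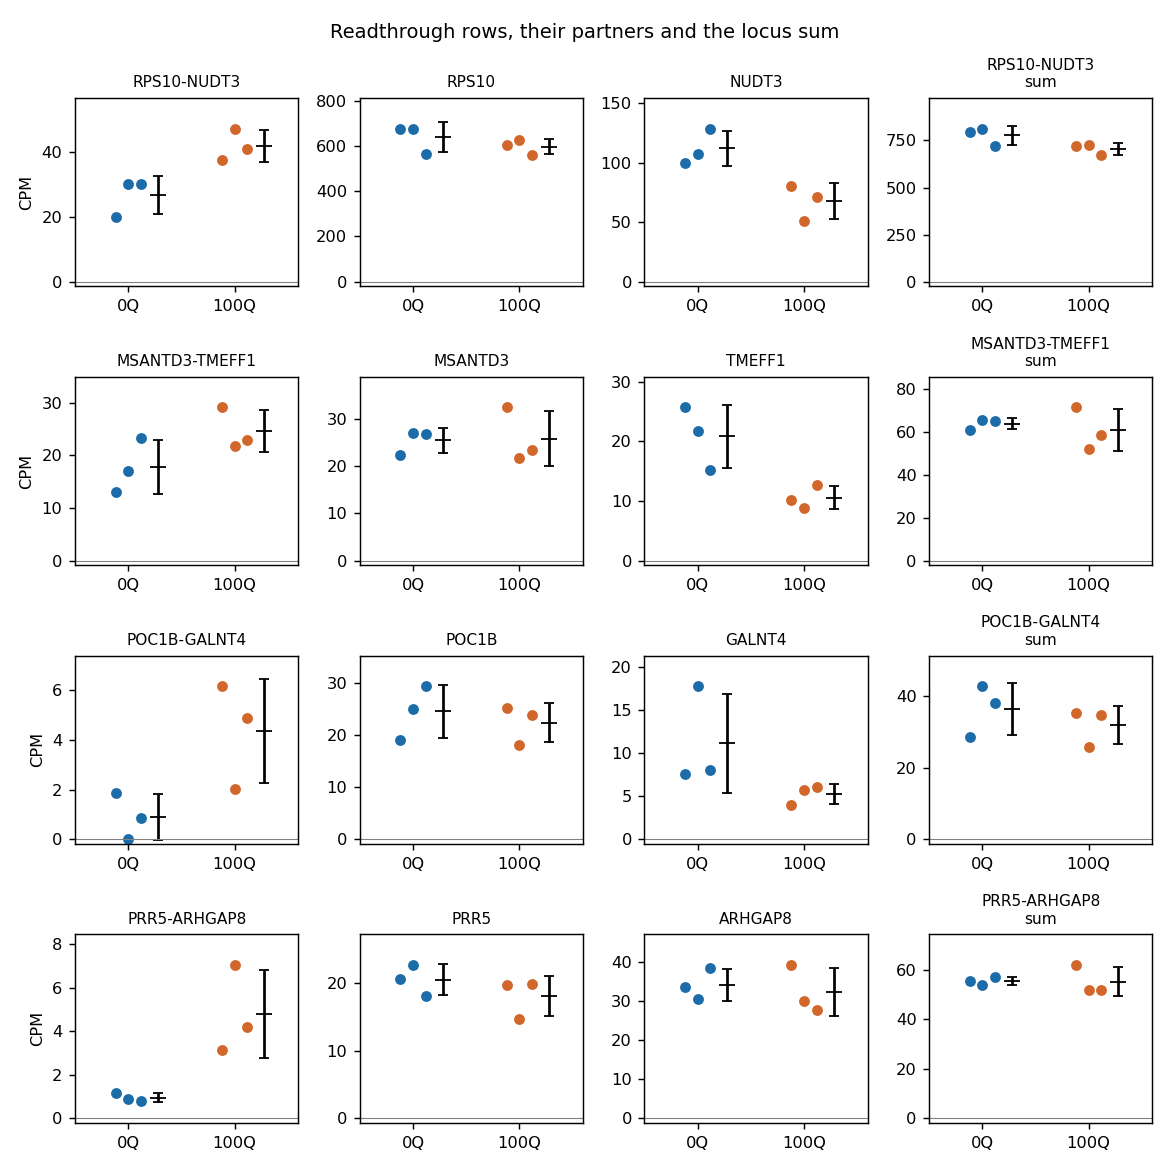
Level in CPM of the readthrough row, the upstream partner, the downstream partner and the locus sum at 4 loci, 1 locus per line of panels; points are the 3 libraries of each group and the black marks are the mean with its SD. NUDT3, TMEFF1 and GALNT4 lie lower in 100Q while RPS10-NUDT3, POC1B-GALNT4 and PRR5-ARHGAP8 lie higher, and the 4 locus sums overlap between the groups.

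SYS1-DBNDD2 joins SYS1, a Golgi membrane protein, to DBNDD2, a protein with a dysbindin domain. It had 3.67, 0 and 1.17 CPM in 0Q and 5.43, 13.6 and 5.49 in 100Q and a log2 fold change of 2.32 ± 0.77 (SE; unadjusted p = 0.00878). All 3 values of 100Q lay above those of 0Q, and 100Q replicate 2, the library with the fewest counts, was the highest. SYS1 had 16.7, 15 and 13.6 CPM in 0Q and 11.4, 15.8 and 16.8 in 100Q and DBNDD2 21.5, 21.1 and 25.6 CPM in 0Q and 22.8, 17.9 and 26.9 in 100Q. JMJD7-PLA2G4B, across the gene of a Jumonji-domain oxygenase and that of a cytosolic phospholipase A2, had 9.81, 13.8 and 8.21 CPM in 0Q and 20.3, 17.2 and 13 in 100Q and a log2 fold change of 0.66 ± 0.25 (SE; unadjusted p = 0.0182). Its lowest 100Q library lay below its highest 0Q library.

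Of the 4 rows with lower values in 100Q, ANKHD1-EIF4EBP3 joins ANKHD1, a protein of ankyrin repeats and a KH domain, to EIF4EBP3, a repressor of cap-dependent translation. It had 39.8, 30.4 and 62.5 CPM in 0Q and 22.2, 16.1 and 39.4 in 100Q and a log2 fold change of -0.70 ± 0.28 (SE; unadjusted p = 0.0224), while ANKHD1 had 135, 148 and 114 CPM in 0Q and 168, 167 and 135 in 100Q and a log2 fold change of 0.24 ± 0.11 (SE; unadjusted p = 0.049). The highest 0Q library of the readthrough row, replicate 3, was the lowest of ANKHD1, and without it the log2 fold change of the row was -0.38. RNASEK-C17orf49, across the gene of a ribonuclease and that of a chromatin protein, had 7.44, 19.3 and 6.46 CPM in 0Q and 4.18, 8.68 and 3.95 in 100Q and a log2 fold change of -1.02 ± 0.44 (SE; unadjusted p = 0.033). Here 0Q replicate 2 stood above the other 5 libraries. BMS1P4-AGAP5, a noncoding gene over a pseudogene and a member of the AGAP family on chromosome 10, had 9.89, 7.22 and 7.82 CPM in 0Q and 0, 0.683 and 4.04 in 100Q, without overlap, and a log2 fold change of -2.12 ± 0.67 (SE; unadjusted p = 0.00625). The AGAP genes of this region are near copies of each other, so its counts are uncertain. BLOC1S5-TXNDC5, from a gene of lysosome-related organelle biogenesis into that of a protein disulfide isomerase, had 16, 15.6 and 0 CPM in 0Q and 0, 0 and 3.67 in 100Q and a log2 fold change of -2.70 ± 1.08 (SE; unadjusted p = 0.0238). It was listed at 0 in 1 library of 0Q and 2 of 100Q.

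In 9 of these 10 loci at least 1 tested partner had a fold change of the opposite sign, and the same held for 49 of all 60 tested readthrough rows with a tested partner (81.7%), so the count is near the background. The locus sums of all 10 overlapped between the groups, and 0 had an unadjusted p under 0.05. Beside the sums already given, those with higher readthrough values had 36.5 ± 7.22 CPM in 0Q and 31.9 ± 5.27 in 100Q at POC1B-GALNT4, 55.6 ± 1.68 CPM in 0Q and 55.2 ± 5.89 in 100Q at PRR5-ARHGAP8, 39.5 ± 3.01 CPM in 0Q and 45.4 ± 5.03 in 100Q at SYS1-DBNDD2 and 20.3 ± 3.75 CPM in 0Q and 25.4 ± 4.22 in 100Q at JMJD7-PLA2G4B. Those with lower readthrough values had 177 ± 1.51 CPM in 0Q and 184 ± 8.42 in 100Q at ANKHD1-EIF4EBP3, 132 ± 2.68 CPM in 0Q and 141 ± 13.4 in 100Q at RNASEK-C17orf49, 11.4 ± 2.17 CPM in 0Q and 7.72 ± 3.53 in 100Q at BMS1P4-AGAP5 and 329.9 ± 20 CPM in 0Q and 313 ± 17.2 in 100Q at BLOC1S5-TXNDC5. The 10 rows were picked for their small p, so their fold changes and those of the sums are a description. Since most of the exons are shared, a different level of the joined transcript and a different division of the same reads among the 3 rows cannot be told apart from these values.

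The other partner rows with an unadjusted p under 0.05 belong to loci where the readthrough row itself had a larger p. The largest differences were those of SULT1A3 and SULT1A4, near-identical sulfotransferase genes of chromosome 16 that inactivate catecholamines. SULT1A3 had 3.83, 4.89 and 0.816 CPM in 0Q and 11.1, 7.85 and 11.3 in 100Q (log2 fold change 1.68 ± 0.48 SE, unadjusted p = 0.00299), and SULT1A4 had 1.68, 1.96 and 5.55 CPM in 0Q and 0.383, 1.4 and 0.221 in 100Q (log2 fold change -2.29 ± 0.79 SE, unadjusted p = 0.0112). They are the downstream partners of SLX1A-SULT1A3, which had 42.4, 38.8 and 27.3 CPM in 0Q and 27.3, 39.6 and 29.7 in 100Q, and of SLX1B-SULT1A4, which had 9.16, 8.68 and 9.56 CPM in 0Q and 11.2, 5.72 and 12.5 in 100Q. Reads cannot be assigned to 1 copy with certainty, so the opposite signs of the pair are uncertain.

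CPT1B, the muscle form of the enzyme that admits fatty acids to mitochondria, had 17.1, 18.7 and 13.5 CPM in 0Q and 20.5, 28.6 and 28.7 in 100Q (log2 fold change 0.67 ± 0.19 SE, unadjusted p = 0.00288). It lies downstream of CHKB, a choline kinase, and CHKB-CPT1B itself had 6.37, 0.823 and 12.4 CPM in 0Q and 9.72, 0.824 and 6.51 in 100Q. STX16 had 136, 126 and 129 CPM in 0Q and 165, 170.3 and 152 in 100Q (log2 fold change 0.31 ± 0.08 SE, unadjusted p = 0.00185) and NPEPL1 8.63, 11.3 and 7.62 CPM in 0Q and 22.9, 11 and 13.4 in 100Q (log2 fold change 0.77 ± 0.28 SE, unadjusted p = 0.0139). At this locus both partners had higher values in 100Q, and the readthrough row, given above, had a lower mean. AGAP6, the downstream partner of TIMM23B-AGAP6, had 26.8, 28.1 and 29.6 CPM in 0Q and 38.1, 43.8 and 39.1 in 100Q (log2 fold change 0.52 ± 0.13 SE, unadjusted p = 0.00133), with TIMM23B-AGAP6 at 4.95 ± 4.3 CPM in 0Q and 2.23 ± 1.78 in 100Q. MSH5, a homologue of mismatch repair proteins that acts in meiosis, had 24.4, 31.2 and 26.6 CPM in 0Q and 36.4, 35.2 and 40.1 in 100Q (log2 fold change 0.45 ± 0.14 SE, unadjusted p = 0.00651), and MSH5-SAPCD1 had 6.54 ± 4.82 CPM in 0Q and 8.03 ± 7.88 in 100Q. TTLL3, an enzyme that adds glycine to tubulin and the downstream partner in ARPC4-TTLL3, had 49.4, 44.5 and 46.5 CPM in 0Q and 64.4, 51.4 and 56.8 in 100Q (log2 fold change 0.30 ± 0.12 SE, unadjusted p = 0.022). In each of CPT1B, STX16, AGAP6, MSH5 and TTLL3 the 100Q libraries lay above all 0Q libraries.

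TVP23C had 3.32, 7.15 and 3.77 CPM in 0Q and 9.04, 10 and 7.12 in 100Q (log2 fold change 0.85 ± 0.37 SE, unadjusted p = 0.0379), with overlap, and its readthrough row TVP23C-CDRT4 is given above. Lower values in 100Q, without overlap, were found for ERVK3-1, BCAP29, PPAN and HSPE1. ERVK3-1, the partner in ZNF8-ERVK3-1, had 42.9, 37.7 and 41.8 CPM in 0Q and 37.2, 26.1 and 25.3 in 100Q (log2 fold change -0.48 ± 0.16 SE, unadjusted p = 0.00837). BCAP29, an endoplasmic reticulum protein and the partner in DUS4L-BCAP29, had 25.4, 19 and 16.5 CPM in 0Q and 13.6, 12.8 and 16.3 in 100Q (log2 fold change -0.49 ± 0.20 SE, unadjusted p = 0.0279), and DUS4L-BCAP29 had 14.5 ± 4.12 CPM in 0Q and 17 ± 1.05 in 100Q. PPAN, a factor of ribosome assembly upstream of P2RY11, had 61.2, 55.3 and 52 CPM in 0Q and 46.6, 50.6 and 42.8 in 100Q (log2 fold change -0.28 ± 0.12 SE, unadjusted p = 0.0327). HSPE1 had 151, 142 and 143 CPM in 0Q and 129, 131 and 117 in 100Q (log2 fold change -0.21 ± 0.08 SE, unadjusted p = 0.0236).

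The 5 locus sums with an unadjusted p under 0.05 are at loci where A and B together carry most of the counts, as they do at most of the loci. STX16-NPEPL1 summed to 147, 141 and 142 CPM in 0Q and 188, 184 and 168 in 100Q (log2 fold change 0.33 ± 0.08 SE, unadjusted p = 0.000998), and MSH5-SAPCD1 to 36.6, 39.7 and 33.4 CPM in 0Q and 45.2, 57.8 and 47.6 in 100Q (log2 fold change 0.45 ± 0.13 SE, unadjusted p = 0.00388). CHKB-CPT1B summed to 56.7, 54.1 and 44 CPM in 0Q and 57.7, 64.5 and 66.5 in 100Q (log2 fold change 0.29 ± 0.12 SE, unadjusted p = 0.0297), and ARPC4-TTLL3 to 105, 97.5 and 108 CPM in 0Q and 119.7, 125 and 114 in 100Q (log2 fold change 0.21 ± 0.09 SE, unadjusted p = 0.0293). All 4 were higher in every 100Q library than in any 0Q library. ZNF8-ERVK3-1 was the 1 sum with lower values, at 73.9, 68.5 and 72.5 CPM in 0Q and 64.5, 57.4 and 56.6 in 100Q (log2 fold change -0.27 ± 0.10 SE, unadjusted p = 0.0202). None of the 5 readthrough rows at these loci had an unadjusted p under 0.05.

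The share of the locus taken by the readthrough row does not depend on the scaling of the libraries. It did not overlap between the groups at 9 of 64 rows (14.1%), 6 higher and 3 lower in 100Q. For the share of the upstream row in the 941 other pairs of overlapping genes this held for 9.99%. With 3 libraries against 3 a two-sided exact permutation test gives no p below 0.1, and each of the 9 reached 0.1. At RPS10-NUDT3 the shares were 2.52%, 3.7% and 4.19% in the 0Q libraries and 5.19%, 6.52% and 6.08% in those of 100Q, with means of 3.47% ± 0.859 in 0Q and 5.93% ± 0.675 in 100Q. At MSANTD3-TMEFF1 they were 21.4%, 25.9% and 35.7% in the 0Q libraries and 40.7%, 41.7% and 38.9% in those of 100Q, with means of 27.7% ± 7.3 in 0Q and 40.4% ± 1.42 in 100Q. At both loci the readthrough row took a larger part in each 100Q library.

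At SYS1-DBNDD2 the shares were 8.76%, 0% and 2.9% in the 0Q libraries and 13.7%, 28.7% and 11.2% in those of 100Q. At POC1B-GALNT4 they were 6.49%, 0% and 2.21% in the 0Q libraries and 17.4%, 7.86% and 14% in those of 100Q, and at PRR5-ARHGAP8 2.12%, 1.61% and 1.35% in the 0Q libraries and 5.03%, 13.6% and 8.13% in those of 100Q. CORO7-PAM16, from a coronin of the Golgi into a subunit of the mitochondrial import motor, had 0%, 4.55% and 3.66% in the 0Q libraries and 6.45%, 10.3% and 5.2% in those of 100Q. These 4 rows also took a larger part in each 100Q library, from means under 5% in 0Q. The 3 with a smaller part were SLX1A-SULT1A3 with 52.9%, 60.8% and 52.8% in the 0Q libraries and 44.7%, 47.3% and 47.3% in those of 100Q, BMS1P4-AGAP5 with 95.9%, 72.6% and 56.4% in the 0Q libraries and 0%, 14.4% and 34.7% in those of 100Q and STX16-NPEPL1 with 1.67%, 2.46% and 3.54% in the 0Q libraries and 0.484%, 1.63% and 1.28% in those of 100Q. Over all 64 rows the share was higher on average in 100Q for 29 and lower for 34, and the median difference was -0.22 percentage points.

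The values of readthrough rows had a larger median spread between libraries of a group than those of their partners, of the locus sums or of other rows within the quartiles of their level. The median within-group SD of log2(CPM + 1) was 0.54 for the readthrough rows, 0.14 for the upstream partners, 0.24 for the downstream partners and 0.12 for the locus sums. For all rows tested it was 0.18. For the 3034 other tested rows with a mean between 3.67 and 14.4 CPM, the quartiles of the readthrough rows, it was 0.30. The 0.54 covers all 64 readthrough rows, also those outside these quartiles, so the match of levels is rough. Partners and locus sums were not matched by level. The SD of A-B was larger than that of its locus sum for 61 of 64 rows and larger than that of both partners for 46. The median SD of A-B was 0.69 for the 13 rows with no exonic base of their own, 0.59 for the 36 rows with fewer than 1000 and 0.45 for the 15 with 1000 or more, whose median summed counts were 642, 251 and 353. The median SE of the log2 fold change was correspondingly 0.41 for readthrough rows against 0.16 for all rows tested, and the median size of the log2 fold change was 0.29 against 0.13.

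Values of 0 were part of this spread. At 15 rows 1 or more libraries were listed at 0, 25 values in all, while another library of the same row had 20 or more counts. ISY1-RAB43, chosen for display after its values were seen, joins ISY1, a splicing factor, to RAB43, a GTPase of membrane traffic. It had 14.2, 19.6 and 0 CPM in 0Q and 13.2, 15.1 and 0 in 100Q, and RAB43 had 6.18, 0.88 and 16.2 CPM in 0Q and 1.93, 1.46 and 17.5 in 100Q. The row was at 0 in replicate 3 of both groups, and in these libraries RAB43 was at its highest. The locus sum was 52.6, 49 and 49.4 CPM in 0Q and 40.3, 53.7 and 47 in 100Q, within a narrow range. BLOC1S5-TXNDC5, given above, was likewise at 0 in 3 of 6 libraries. A 0 here is the estimate of the authors' counting. The floor of 3 counts that a 0 allows covers counting error only, not the division of shared reads.

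**Figure D4:**
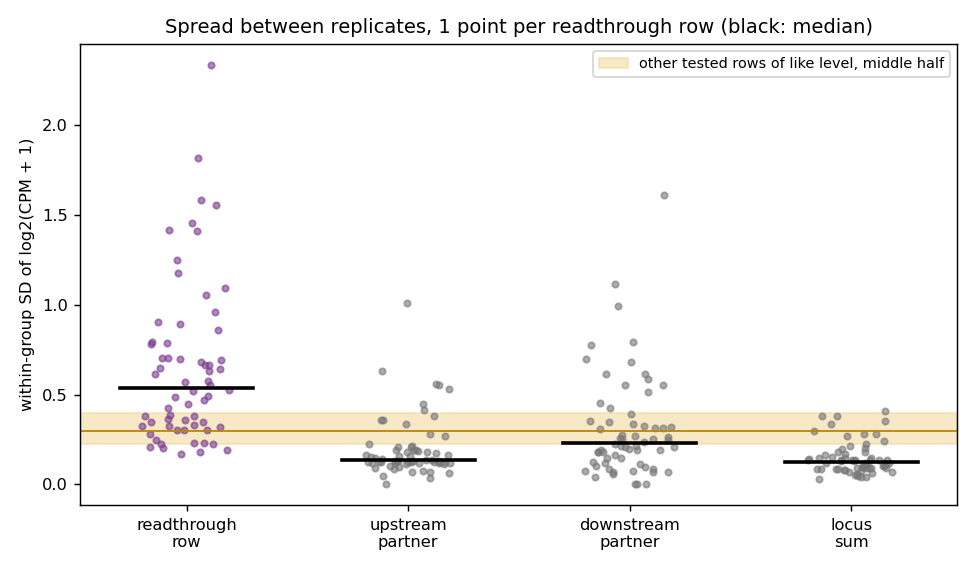
Within-group SD of log2(CPM + 1), 1 point per readthrough row or per partner or locus sum that goes with it, with the median as a black bar; the band and line show the middle range and median (0.30) of other tested rows with a mean CPM between the quartiles of the readthrough rows. The readthrough rows have a median of 0.54 and reach 2.33, and the locus sums have a median of 0.12.

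The genes that set where transcripts end did not differ between the groups beyond the threshold. Of 20 genes of cleavage and polyadenylation, 12 of termination and 3 of the U1 snRNP, all 35 were tested. Of these edgeR called 0, against 0.0134% of all rows tested. An unadjusted p under 0.05 was found for 2 (5.71%), against 4.72% of all rows tested, so the count is near the background. CSTF1, a subunit of the cleavage stimulation factor, had 48.2 CPM in 0Q and 57 in 100Q (log2 fold change 0.24 ± 0.11, SE). RBBP6, which takes part in 3′ end cleavage, had 132 and 113 CPM (log2 fold change -0.22 ± 0.10, SE). The next by p were SNRPA of the U1 snRNP (0.12) and the poly(A)-binding protein PABPN1 (0.10) on the higher side, and CLP1 of the cleavage factor (-0.27) and RPRD1A, which binds the tail of the polymerase (-0.11), on the lower side. The median log2 fold change of the 35 genes was -0.01, beside -0.0027 for all rows tested.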

How the data were processed

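Messenger RNA of HEK293T cells was measured in 6 libraries, grouped by their titles into 0Q and 100Q, 3 each. The authors deposited estimated counts for each Ensembl gene without normalization. FastQC, STAR and RSEM are the tools in the submitters' processing notes, and hg38 is the genome in the series text. No source used here gives the tool versions, the annotation, the strand setting or the use of molecular identifiers. Every column of the table belonged to a sample (0 columns without one). Symbols, exons and coordinates came from GENCODE release 44; 62541 of 63086 identifiers matched, and the 545 others held 0.129% of the counts. Without the strand setting, it is not known whether reads of rows that overlap on opposite strands were told apart.

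Estimated counts were rounded, and edgeR 4.0.16 (R 4.3.3) fitted its quasi-likelihood model with TMM scaling, the default filter (minimum count 10) and Benjamini-Hochberg adjustment over all rows tested. Locus sums were fitted in a second table in which they replaced their rows. For the shares, a two-sided exact permutation test ran over all divisions of the 6 libraries into 3 and 3. Background pairs were other genes whose spans overlap on the same strand, with each row at 60 counts or more. Floors and totals cover counting error only. In simulated data with 200 of 14585 genes changed, the test recovered 56%, 74%, 98% and 98% of genes changed 1.5, 2, 3 and 4-fold, with 6 wrong among 169 calls. The changed genes were drawn from those with a mean of at least 5 CPM, with the spread that edgeR estimated for genes of like level. The readthrough rows had a larger spread (median SD 0.54 against 0.30 for other rows between their CPM quartiles) and a lower quartile of 3.67 CPM. These figures therefore do not give the recovery for readthrough rows.

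The members and lists were chosen with earlier results of these data known. Of the members, 1 row is counted in the totals but its own values are not reported here, and 1 marker gene is left out. Values in every library are printed for each readthrough row, partner row or locus sum with an unadjusted p under 0.05. Other rows of the same loci are given by library, by mean and SD, or not at all. Readthrough rows are also printed by library for the 8 with most counts, the 3 largest and 3 smallest shares, the 3 rows on either side of the minimum of 60, and RPS10-NUDT3. Of the genes of 3′ ends, the 3 of smallest p in each direction were to be named. Alternatives were RLE size factors, library size only, no filter or a mean count of at least 50, counts not rounded, DESeq2 1.42.0, limma-voom (limma 3.58.1), the replicate number as a block, leaving out each library, other definitions of the share, and minimum sums of 30 and 120.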

Additional observations from a re-analysis of the deposited data

How the results depend on the processing

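The 3 counts of 0 (readthrough rows, partner rows and locus sums past the threshold) remained 0 under RLE size factors, library size only, a mean count of at least 50, counts not rounded, limma-voom, the replicate block and leaving out each library. With no filter on low counts, edgeR called 6 readthrough rows (BMS1P4-AGAP5, SYS1-DBNDD2, ANKHD1-EIF4EBP3, BLOC1S5-TXNDC5, RPS10-NUDT3 and DNAAF4-CCPG1, the last not tested otherwise) and 3 partner rows (TMEFF1, SULT1A3 and NUDT3) among 71 calls in 28995 rows; the cause was not tested. DESeq2 called 1 partner row, NUDT3, among 11 calls in all; the cause was not tested. The 40 log2 fold changes printed kept their direction in all 552 alternative fits, and 9 of those fits passed the threshold. Most of these fold changes were picked for a small unadjusted p, which favours a kept direction. The 9 share differences kept their sign in all 88 alternatives, 15 of which moved the value by more than 1 SD. These 9 were picked because their groups did not overlap. Leaving out 1 library therefore could not reverse their sign, and those alternatives are no check of it. Leaving out 1 library gave 13 to 17 rows whose shares did not overlap, against 9 with all 6, since fewer libraries are apart more readily. The same count was not made for the background pairs, so whether 13 to 17 exceeds their share was not tested. The members numbered 76 at a minimum sum of 30, 53 at 120 and 62 with both partners in place. Replicates with the same number did not deviate together (correlations of 0.0014, -0.020 and 0.081 over rows), so no pairing by number was seen. With 3 libraries per group this cannot show that there was none, and the labels do not say. With the replicate block edgeR called 0 readthrough rows, 0 partner rows and 0 locus sums. Depth limits the rows of low count: 2 of the 64 had too few counts for the test, and the libraries hold 4023956 to 11398835 counts.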
